A study of Mus musculus with 10 samples.

Results

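The genes described here are those of glucose uptake, glycolysis and the transcriptional response to low oxygen. They were chosen by name from textbook function, with earlier results of these data known. The 35 gene symbols were matched through the GRCm38 annotation to 36 of the 55421 rows of the count table, because the symbol Aldoa belongs to a pair of gene IDs. The second Aldoa ID held 9 to 18 counts per library and is listed apart. RNA was sequenced from myeloid cells isolated from mice, 8 to 12 weeks old, 15 days into the growth of MC17-51 fibrosarcomas, written M17 in the labels. Myeloid-derived suppressor cells (MDSC) were taken from spleen as GR-1+ cells, and tumor-associated macrophages (TAMs) from the tumor as CD11b+F4/80+ cells. Control mice (Shp2f/f) carried floxed alleles of Ptpn11, the gene of the phosphatase SHP-2, and Shp2f/fLysMcre mice carried the same floxed alleles with Cre recombinase expressed from the LysM (Lyz2) promoter, which is active across granulocytes, monocytes and macrophages. MDSC were represented by 2 libraries of each genotype and TAMs by 3 libraries of each genotype.

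Cells take up glucose through facilitative transporters and split it into pyruvate by the enzymes of glycolysis. Pyruvate is either reduced to lactate and exported, or oxidised in mitochondria. When oxygen is scarce, prolyl hydroxylases no longer mark HIF-1α for degradation, and the HIF-1 heterodimer binds hypoxia response elements and raises transcription of glucose transporters, glycolytic enzymes, angiogenic factors and genes of mitochondrial turnover. In macrophages the same program is also engaged during inflammatory activation, and its main control lies on the stability of the HIF-1α protein, which RNA sequencing does not measure.

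The libraries held 28844660 to 38222998 counts, and the 36 rows took 0.680 to 0.709% of them in MDSC, 1.12 to 1.13% in Shp2f/f TAMs and 1.26 to 1.32% in Shp2f/fLysMcre TAMs. Levels are in CPM, counts scaled to 1000000 counts per library. Ptpn11 was at 119 to 122 CPM in Shp2f/f TAMs and at 48.8 to 51.9 CPM in Shp2f/fLysMcre TAMs, a log2 difference of -1.24 (edgeR quasi-likelihood, BH-adjusted p = 2.96e-09), whereas in MDSC it was at 104 to 119 CPM against 82.7 to 99.9 CPM (log2 difference -0.29, edgeR adjusted p = 0.361). The methods describe the MDSC as polymorphonuclear (Ly6G+Ly6C-) cells. The defining marker Ly6g was at only 9.2 to 34.1 CPM of total counts in the MDSC libraries, while Csf1r, the receptor of the macrophage growth factor, was at 1126 to 1487 CPM. The second Shp2f/fLysMcre MDSC library held fibroblast transcripts, with Col1a1 at 188.7 CPM against 1.74 to 14.6 CPM in the other MDSC libraries and Tnc at 82.5 CPM against 0.112 to 0.387 CPM. Islet genes summed to 846 to 6685 CPM in Shp2f/f TAMs and to 5.75 to 73.8 CPM in Shp2f/fLysMcre TAMs. Xist was at 130.2 to 350.4 CPM in Shp2f/fLysMcre libraries and at 0.0298 to 18.5 CPM in Shp2f/f libraries, so the sex of the mice and the genotype cannot be told apart. The labels do not tie libraries to mice, so each p-value below measures the spread between libraries, which may be technical. In such bulk samples a lower level can come from fewer cells that express a gene or from less RNA per cell, and these cannot be told apart.

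The first question was how loss of SHP-2 in the myeloid lineage bore on these genes in TAMs. TAMs from Shp2f/fLysMcre mice had higher expression of 29 of the 36 rows, and of none lower, whereas 7 were not called. Among all 14446 genes tested in TAMs, 50.2% were called at an edgeR adjusted p under 0.05, 23.9% as higher and 26.3% as lower. The median log2 difference was 0.32 over the 36 rows and -0.01 over all genes tested. In 30 of the 36 rows the 3 libraries of each genotype did not overlap, as against 58.2% of all genes tested. The summed level of the 36 rows went from 10849 to 10960 CPM in Shp2f/f TAMs to 12860 to 13798 CPM in Shp2f/fLysMcre TAMs, a difference of 21.8% between the means.

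The rise was uneven along the list. Of the 16 rows of glycolytic enzymes and Pfkfb3, 11 were called higher, with a median log2 difference of 0.16. Of the other 20 genes, 18 were called higher, with a median of 0.45. The summed level of the first set was 7950 ± 25.1 CPM in Shp2f/f and 9182 ± 431 CPM in Shp2f/fLysMcre TAMs (SD, n = 3 each), and that of the second set was 2945 ± 32.9 CPM and 4082 ± 56.6 CPM. These sums differed by 15.5% and 38.6%. The difference between the sets is a description, with no test. When libraries were scaled by total counts in place of the trimmed mean of M values (TMM), the median of all genes tested moved to -0.11, and 23 rows were called higher and 2, Hk1 and Ldha, lower.

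**Figure D1:**
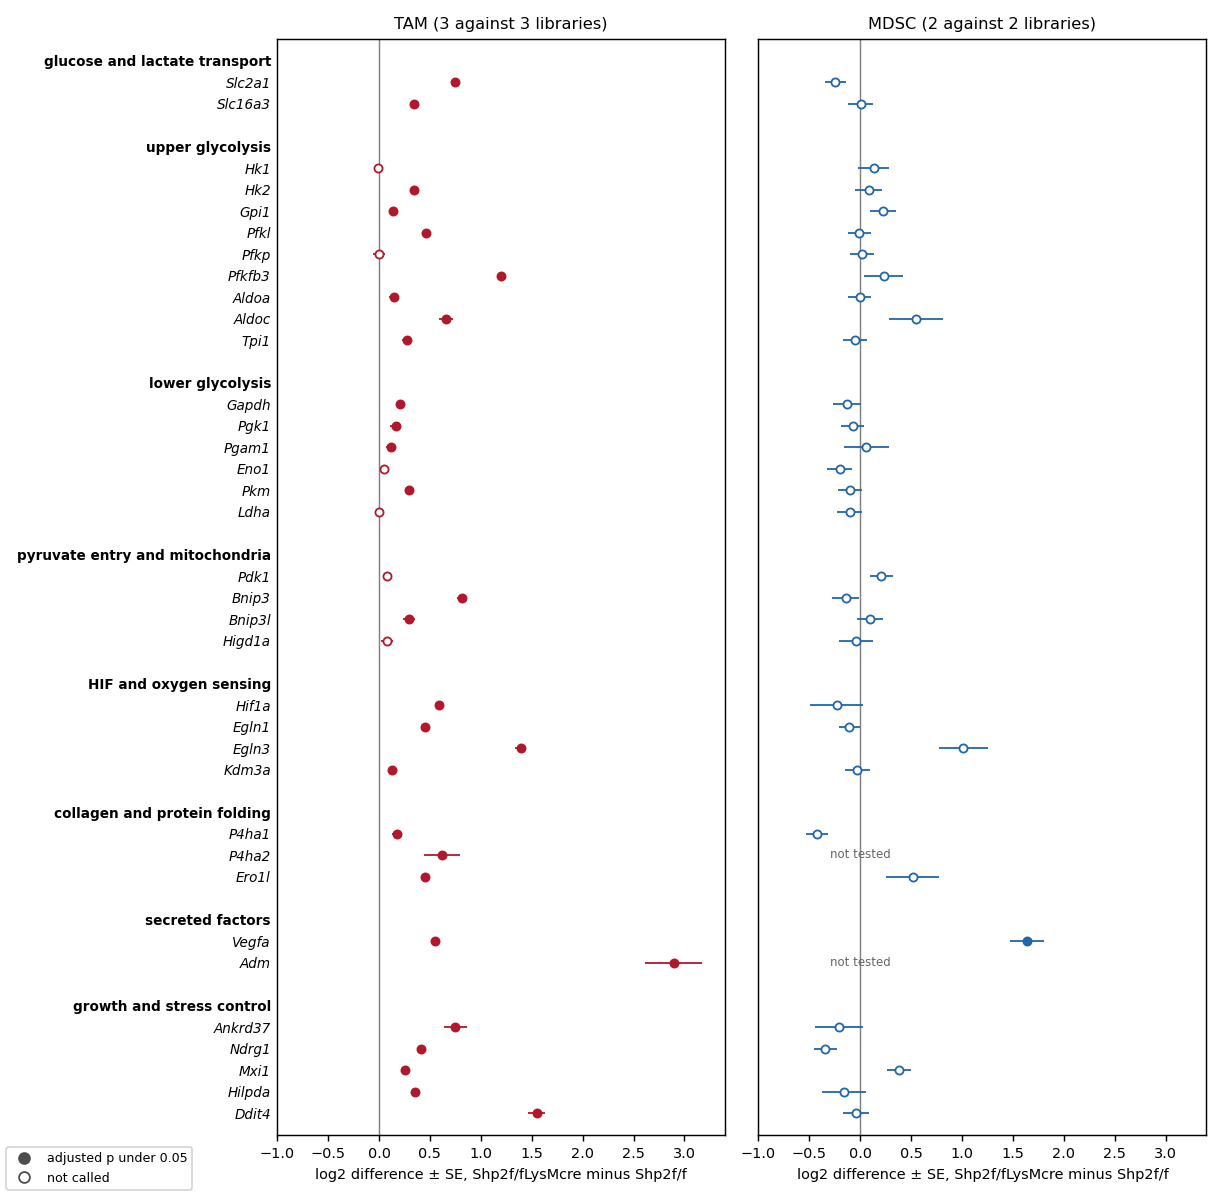
Log2 difference between genotypes for each of 35 genes, by role, in TAMs (left) and MDSC (right). The x axis is the edgeR log2 difference, Shp2f/fLysMcre minus Shp2f/f, and bars are 1 SE. Filled points passed an adjusted p under 0.05 over all genes tested. In TAMs nearly all points lie right of 0, led by Adm (2.89), whereas in MDSC only Vegfa (1.64) was called. The second Aldoa ID is not drawn.

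Transport of glucose and lactate came first. Slc2a1 (chromosome 4, 119108711 to 119137983, GRCm38) encodes GLUT1, the basal glucose transporter. Its level was 228, 234 and 233 CPM in the 3 Shp2f/f TAM libraries and 390.3, 387 and 385 CPM in the 3 Shp2f/fLysMcre libraries, so the groups lay far apart relative to their spread. The fold change was 1.67, with a log2 difference of 0.74 (SE 0.036, edgeR adjusted p = 5.5e-08). Slc16a3, which encodes the lactate exporter MCT4, rose from 241 ± 1.43 to 304 ± 6.97 CPM (SD, n = 3 each, log2 difference 0.34).

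The enzymes of the upper part of glycolysis split between isoenzymes. Hexokinase traps glucose in the cell as its phosphate. Hk2 (chromosome 6, 82725025 to 82774454), its inducible isoenzyme, was at 133, 132 and 130.4 CPM in Shp2f/f TAMs and at 171, 166 and 164 CPM in Shp2f/fLysMcre TAMs, without overlap (log2 difference 0.34, SE 0.036, edgeR adjusted p = 1.57e-05). The constitutive isoenzyme Hk1 was at 138 ± 2.62 and 137 ± 4.45 CPM (log2 difference -0.01, edgeR adjusted p = 0.785). Per kilobase of exon, the level of Hk2 was 22.1 RPKM and that of Hk1 16.2 RPKM in Shp2f/f TAMs, and 28.0 and 16 RPKM in Shp2f/fLysMcre TAMs.

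Phosphofructokinase, the committed step, showed the same split. Pfkl, its liver-type form, rose from 167 ± 1.95 to 231 ± 9.64 CPM (log2 difference 0.47, SE 0.041), whereas the platelet-type Pfkp was at 167 ± 15.2 and 167 ± 5.46 CPM. Pfkfb3 (chromosome 2, 11471433 to 11554077) makes the sugar bisphosphate that activates phosphofructokinase. Its level was 140.2, 138 and 139.6 CPM in Shp2f/f TAMs and 312, 324 and 321 CPM in Shp2f/fLysMcre TAMs. The 2.29-fold rise (log2 difference 1.20, SE 0.037, edgeR adjusted p = 2.96e-09) was the largest among the glycolytic members.

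Aldolase and the steps next to it moved less. Aldoc, a minor aldolase at 7.77 ± 0.155 CPM in Shp2f/f TAMs, rose to 12.3 ± 0.67 CPM (log2 difference 0.66), while the main form Aldoa rose by 0.15, Gpi1 by 0.14 and Tpi1 by 0.27 on the log2 scale. The second Aldoa ID was not called (log2 difference 0.02, SE 0.32). Aldoa and Gpi1 were no longer called under total-count scaling or without a filter on low counts, and Aldoa was also lost without Shp2f/f library 1.

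In the lower part of glycolysis, 4 of 6 genes were called higher. Gapdh, which makes the first high-energy intermediate, rose by 0.20 on the log2 scale, Pgk1 by 0.17 and Pgam1 by 0.11. Under total-count scaling Pgk1 and Pgam1 were no longer called, and Pgam1 was not called either with the replicate block, without a filter on low counts, with a minimum count of 50, in the fit of all libraries or in 5 of the 6 fits that left out a library. Pgk1 was also lost without Shp2f/f library 1. Pgk1 lies on the X chromosome, and Xist moved with the genotype as given above. Pkm (chromosome 9, 59656368 to 59679375) encodes pyruvate kinase M, and its counts do not separate the M1 and M2 splice forms. It was at 1895, 1883 and 1888 CPM in Shp2f/f TAMs and at 2478, 2253 and 2232 CPM in Shp2f/fLysMcre TAMs, a log2 difference of 0.30 (SE 0.039, edgeR adjusted p = 8.14e-05).

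Ldha (chromosome 7, 46841475 to 46855627), which reduces pyruvate to lactate and is a classical HIF-1 target, was at 953, 986 and 948 CPM in Shp2f/f TAMs and at 1003, 975 and 916 CPM in Shp2f/fLysMcre TAMs. The groups overlapped, and the log2 difference was 0.00347 (SE 0.040, edgeR adjusted p = 0.952). Under total-count scaling it was -0.09 (edgeR adjusted p = 0.0364). Eno1, enolase, was at 708 ± 7.4 and 733 ± 44.9 CPM (log2 difference 0.05, edgeR adjusted p = 0.383). Of the 15 genes of glycolysis with a distinct symbol, 11 had their highest Shp2f/fLysMcre level in the library numbered 1, as did 16 of the other 20 genes, and without that library 28 rows were called higher.

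At the entry of pyruvate into mitochondria, Pdk1, the kinase that shuts off pyruvate dehydrogenase, was at 115 ± 2.3 and 121 ± 3.17 CPM (log2 difference 0.08, edgeR adjusted p = 0.092). Bnip3 (chromosome 7, 138890836 to 138909519), a mitophagy receptor, was at 68.4, 79.1 and 77.8 CPM in Shp2f/f TAMs and at 136, 131 and 129.8 CPM in Shp2f/fLysMcre TAMs. The groups did not overlap, and the fold change was 1.76 (log2 difference 0.81, SE 0.053, edgeR adjusted p = 4.1e-07). The related receptor Bnip3l rose by 0.30 on the log2 scale, and Higd1a, a mitochondrial protein of the respiratory chain, was not called (log2 difference 0.08, edgeR adjusted p = 0.289).

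All 4 genes of HIF and oxygen sensing were called higher. Hif1a (chromosome 12, 73901375 to 73947530), which encodes HIF-1α, was at 422, 429 and 424 CPM in Shp2f/f TAMs and at 614, 629 and 672 CPM in Shp2f/fLysMcre TAMs, a fold change of 1.5 (log2 difference 0.59, SE 0.041, edgeR adjusted p = 7.15e-07). Egln3 (chromosome 12, 54178981 to 54203860), a prolyl hydroxylase that is itself a HIF target, was at 18.1, 20.2 and 19.6 CPM against 52.9, 49.1 and 50.1 CPM. It rose 2.63-fold (log2 difference 1.39, SE 0.053, edgeR adjusted p = 1.11e-08). The main oxygen sensor Egln1 rose by 0.45 and the histone demethylase Kdm3a by 0.13 on the log2 scale. The call of Kdm3a (edgeR adjusted p = 0.0228) was lost with the replicate block (0.0511), under total-count scaling (log2 difference 0.03), without a filter on low counts, in the fit of all libraries and in 4 of the 6 fits that left out a library.

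The genes of collagen modification and protein folding were also higher. P4ha1 and P4ha2, subunits of collagen prolyl hydroxylase, rose by 0.17 and 0.62, and Ero1l, an oxidase of disulfide formation, by 0.46 on the log2 scale. P4ha1 was not called under total-count scaling (log2 difference 0.08, edgeR adjusted p = 0.128), nor P4ha2 in the fit of all libraries (edgeR adjusted p = 0.618). P4ha2 was low, at 84 to 135 counts per library in Shp2f/f TAMs and at 109 to 154 in Shp2f/fLysMcre TAMs.

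Both secreted factors rose. Vegfa (chromosome 17, 46016993 to 46032369), the main angiogenic growth factor, was at 501, 493 and 499 CPM in Shp2f/f TAMs and at 759, 699 and 725 CPM in Shp2f/fLysMcre TAMs (log2 difference 0.55, SE 0.039, edgeR adjusted p = 8.03e-07). Adm, which encodes the vasodilator adrenomedullin, was singled out after its values were seen, since it is below the 10 CPM asked of named genes. In Shp2f/f TAMs its counts were 25, 11 and 18, and in Shp2f/fLysMcre TAMs they were 131, 110 and 109, the largest difference of the list (log2 difference 2.89, SE 0.28, edgeR adjusted p = 7.11e-06).

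Of the 5 genes of growth and stress control, all were called higher. Ddit4 (chromosome 10, 59949669 to 59951834), a stress-induced inhibitor of mTORC1, was at 24.3, 25.0 and 27.0 CPM in Shp2f/f TAMs and at 83.9, 72.7 and 66.2 CPM in Shp2f/fLysMcre TAMs. The groups were far apart, with a 2.92-fold rise (log2 difference 1.55, SE 0.08, edgeR adjusted p = 8.69e-08). Ankrd37, a small HIF target at 4.95 ± 0.118 CPM in Shp2f/f TAMs, rose by 0.75, Ndrg1 by 0.41, the lipid droplet protein Hilpda by 0.35 and the MYC antagonist Mxi1 by 0.26 on the log2 scale.

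**Figure D2:**
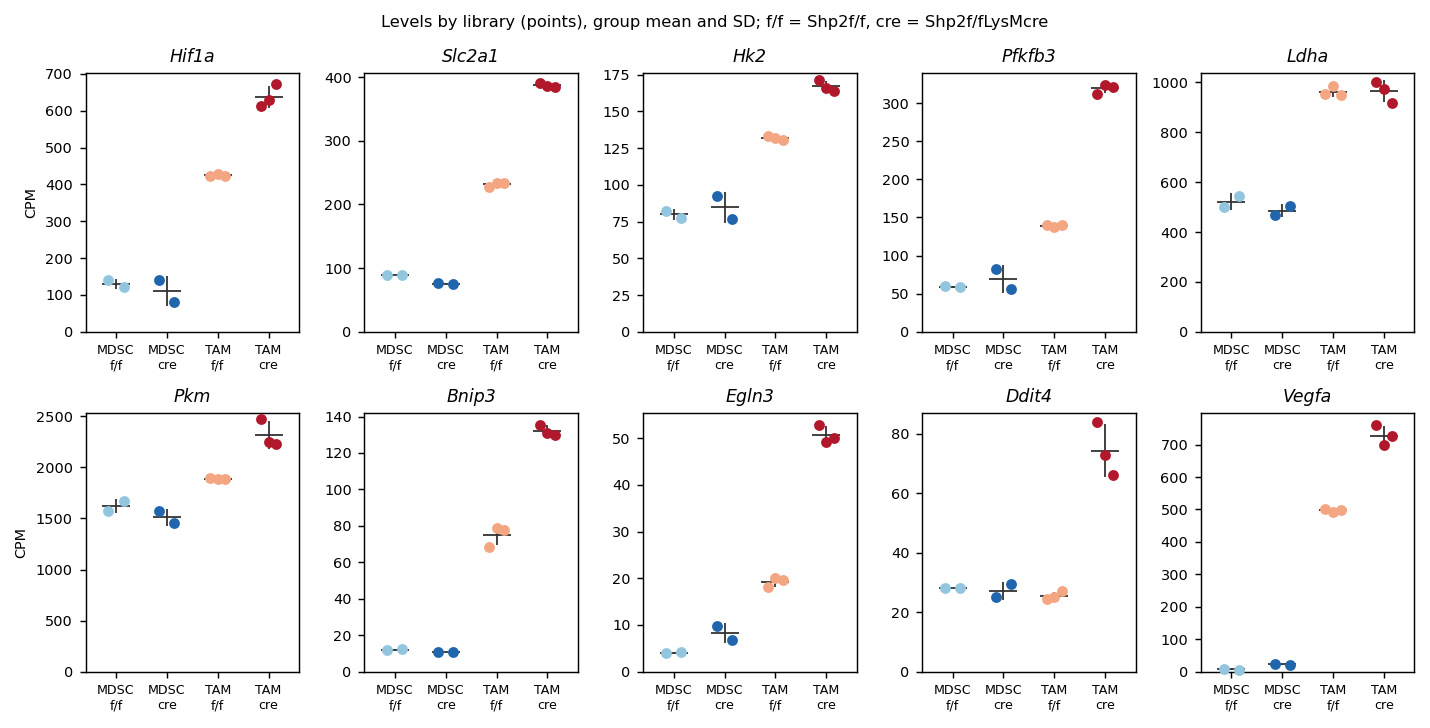
Levels of 10 genes in every library. The y axis is CPM with TMM scaling within each cell type, starting at 0, points are libraries, and bars give the group mean and SD (n = 2 per MDSC group and n = 3 per TAM group). In TAMs all genes but Ldha separate by genotype, and Vegfa is at 6.45 to 24.2 CPM in MDSC against 493 to 759 CPM in TAMs.

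Because many of these genes rose together in TAMs, the RefSeq promoter windows (GRCm38.p6, 250 bases before to 50 bases after each start) were searched on both strands for the core letters of the hypoxia response element, ACGTG and GCGTG. Read on both strands, ACGTG overlaps itself where the palindrome CACGTG stands. At least 1 window was found for 33 of the 35 symbols. ACGTG stood in a window of 25 of these 33 genes (75.8%), as against 21.8% of all 27025 genes with a window and 28.9% of the 10408 such genes tested in TAMs. Either core stood in a window of 31 of 33 (93.9%), as against 46.7% and 66.2%. Since many members are textbook HIF targets, this is a description of how the list was chosen. ACGTG stood in 22 of the 27 genes called in TAMs and in 3 of the 6 not called, whereas either core stood in 25 of the 27 and in 6 of the 6, so the direction of this split depended on the core that was searched.

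The windows of the 3 called genes with the largest TAM difference that hold a core are shown, because their genes differed most between the genotypes. They run 5′ to 3′ on the gene's strand, with each core, or its reverse complement, in capitals.
Adm, chr7:110627407-110627706, plus strand: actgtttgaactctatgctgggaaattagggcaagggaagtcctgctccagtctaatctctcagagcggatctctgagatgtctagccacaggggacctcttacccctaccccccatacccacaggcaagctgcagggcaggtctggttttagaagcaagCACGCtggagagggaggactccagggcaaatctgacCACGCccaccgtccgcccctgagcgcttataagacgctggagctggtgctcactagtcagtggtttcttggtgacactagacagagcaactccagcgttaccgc
Ddit4, chr10:59951721-59952020, minus strand: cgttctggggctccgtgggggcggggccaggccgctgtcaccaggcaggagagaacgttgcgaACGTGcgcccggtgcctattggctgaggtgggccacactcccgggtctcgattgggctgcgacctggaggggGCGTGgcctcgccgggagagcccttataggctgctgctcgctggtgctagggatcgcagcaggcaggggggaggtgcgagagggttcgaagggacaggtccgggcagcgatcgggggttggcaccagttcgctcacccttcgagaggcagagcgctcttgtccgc
Egln3, chr12:54203825-54204124, minus strand: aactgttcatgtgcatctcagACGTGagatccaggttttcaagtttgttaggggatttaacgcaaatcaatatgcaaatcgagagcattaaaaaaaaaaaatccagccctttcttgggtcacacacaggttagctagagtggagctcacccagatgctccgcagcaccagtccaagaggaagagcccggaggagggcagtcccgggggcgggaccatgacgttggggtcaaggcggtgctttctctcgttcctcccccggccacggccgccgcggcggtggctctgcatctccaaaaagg
The Adm window holds GCGTG on the opposite strand 90 and 54 bases before the start and no ACGTG. The Ddit4 window holds ACGTG 187 bases and GCGTG 115 bases before the start, and the Egln3 window holds ACGTG 229 bases before it. A match gives letters only, and no binding was measured.

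The same comparison in MDSC asked whether the splenic cells differed in the same way. Of the 36 rows, 33 passed the filter on low counts, and 1, Vegfa, was called higher and none lower. Among all 14806 genes tested in MDSC, 4.28% were called, 3.76% as higher and 0.52% as lower. The median log2 difference was -0.03 over the 33 rows and -0.01 over all genes tested, and 5 rows had an unadjusted edgeR p under 0.05. The DESeq2 Wald test called 2 rows, beside 8.48% of all genes tested. Precision was lower than in TAMs: the median SE of the log2 difference was 0.12 over the rows tested in MDSC and 0.042 in TAMs.

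Vegfa was at 7.93 and 6.45 CPM in Shp2f/f MDSC and at 24.2 and 20.6 CPM in Shp2f/fLysMcre MDSC, so the groups did not overlap. The fold change was 3.12 (log2 difference 1.64, SE 0.17, edgeR adjusted p = 0.0183). It was as large without the library that held fibroblast transcripts (log2 difference 1.75). It was not called when either Shp2f/f library was left out, in fits with a lone Shp2f/f library that called hardly any gene.

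The other members named in TAMs gave the following values. Slc2a1 was at 88.7 and 89.6 CPM in Shp2f/f and at 75.8 and 74.7 CPM in Shp2f/fLysMcre MDSC (log2 difference -0.24, SE 0.10, edgeR adjusted p = 0.274). Egln3 was at 3.96 and 4.18 CPM against 9.77 and 6.70 CPM (log2 difference 1.01, SE 0.24, edgeR adjusted p = 0.0904), and it was called higher under DESeq2, with the replicate block, in the fit of all libraries and without either Shp2f/fLysMcre library. Slc2a1 was called lower in the fit of all libraries. Neither set of libraries overlapped, although 49.1% of all genes tested in MDSC did not overlap either.

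Hif1a was at 139.9 and 121 CPM in Shp2f/f MDSC, and at 140.3 and 81.4 CPM in Shp2f/fLysMcre MDSC, the last value from the library with fibroblast transcripts. Pfkfb3 was at 59.5 and 58.2 CPM against 81.8 and 56.2 CPM, and Hk2 at 82.4 and 77.3 CPM against 92.3 and 77.1 CPM. In all 3 genes the Shp2f/fLysMcre libraries differed more from each other than the group means did. Hif1a was called lower without Shp2f/fLysMcre library 1, and Pfkfb3 higher without library 2.

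Pkm was at 1569.8 and 1672 CPM in Shp2f/f and at 1569.9 and 1455 CPM in Shp2f/fLysMcre MDSC, and Ldha at 499 and 545 CPM against 466 and 505 CPM. Bnip3 was at 11.8 and 12.3 CPM against 10.9 and 10.9 CPM, and Ddit4 at 28.0 and 28.0 CPM against 25.0 and 29.4 CPM. The log2 differences of these 4 genes lay between -0.14 and -0.04.

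P4ha2 and Adm were below the count filter in MDSC and were not tested there. P4ha2 held 5 and 9 counts in Shp2f/f, and 3 and 267 counts in Shp2f/fLysMcre MDSC. Adm held 2 counts in 3 of the MDSC libraries and 29 in the other. For both genes the high value came from the library with Col1a1 and Tnc transcripts, and the part of fibroblast RNA in it was not tested. Leaving out either Shp2f/fLysMcre library left a lone library in that group. Without the other Shp2f/fLysMcre library, the lone library was the one with these transcripts. Adm and P4ha2 then passed the filter on low counts and were called higher.

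Cell markers moved with genotype in MDSC too. The 8 granulocyte markers summed to 8836 to 8948 CPM in Shp2f/f and to 22125 to 24248 CPM in Shp2f/fLysMcre MDSC, with 4 of 8 called higher. The 10 proliferation genes summed to 699 to 762 CPM and 1433 to 1619 CPM, with 8 of 10 called higher, and the 10 erythroid genes to 298 to 320.1 CPM and 656 to 828 CPM, with 8 of 10 called higher. The 8 macrophage markers summed to 2506 to 2586 CPM in Shp2f/f and to 1940 to 2086 CPM in Shp2f/fLysMcre MDSC, with none of 8 called, and 2 of 5 B cell markers were called lower. In TAMs the proliferation genes went the other way, from 1031 to 1038 CPM to 529 to 553 CPM, with 10 of 10 called lower, and the 8 macrophage markers rose from 8687 to 8945 CPM to 11790 to 12154 CPM, with 8 of 8 called higher. The granulocyte markers rose too in TAMs, from 297 to 307 CPM to 435 to 460 CPM, with 5 of 7 tested called higher, while the 5 T cell markers fell from 8.53 to 9.93 CPM to 4.31 to 4.75 CPM, with 4 of 5 called lower. Of the erythroid genes 3 of 6 tested, and of the B cell markers 1 of 3, were called higher in TAMs, both lists summing to at most 13.9 CPM. The 10 fibroblast genes, among them Fn1 that macrophages also express, summed to 1182 to 1217 CPM in Shp2f/f and 1072 to 1157 CPM in Shp2f/fLysMcre TAMs. The part of these changes in the levels of glycolytic and hypoxia genes was not tested.

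Within Shp2f/f mice, TAMs were compared with MDSC to show the levels from which the genotypes depart. TAMs had higher expression of 29 of the 36 rows and lower expression of 2, with 5 not called. Among all 16581 genes tested, 69.6% were called, 35.1% as higher in TAMs and 34.6% as lower. The median log2 difference, TAM minus MDSC, was 0.91 over the 36 rows and 0.00385 over all genes tested. TAMs came from the tumor and MDSC from the spleen, and the cells were isolated by different methods, so tissue, cell type and isolation cannot be told apart. The methods state that both came from the same mice, but the labels do not pair the libraries. The fit therefore treated all libraries as independent.

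Vegfa had the largest difference, with 6.45 to 7.93 CPM in MDSC and 493 to 501 CPM in TAMs (log2 difference 6.21, SE 0.12, edgeR adjusted p = 1.53e-10). Hilpda followed, at 10.5 ± 0.168 CPM in MDSC and 229 ± 7.0 CPM in TAMs (log2 difference 4.55). Bnip3 (2.74), Egln3 (2.34), Pdk1 (2.12), Hif1a (1.80), P4ha1 (1.72), Mxi1 (1.70) and Slc2a1 (1.47) also had log2 differences above 1, as did Ero1l and the low genes P4ha2 and Adm. The fibroblast markers Col3a1, Dcn and Tnc were at 119.6 to 125, 86.8 to 89.7 and 46.6 to 50.6 CPM in Shp2f/f TAMs against at most 2.71 CPM in Shp2f/f MDSC. Of the 10 fibroblast genes, 4 were called higher in TAMs, 1 was called lower and 5 were not called. The sum of the 10, which includes Fn1, was 1182 to 1217 CPM in Shp2f/f TAMs and 1437 to 1654 CPM in Shp2f/f MDSC. The part of tumor-cell RNA in the differences between the cell types was not tested.

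Of the 16 rows of glycolytic enzymes and Pfkfb3, 13 were higher and 1 lower, with a median log2 difference of 0.76, and of the other 20 genes 16 were higher and 1 lower, with a median of 1.59, which is a description with no test. Aldoc (1.65), Tpi1 (1.52), Pfkfb3 (1.34), Pfkl (1.31), Pgam1 (1.18) and Ldha (0.98) were called higher in TAMs, and Pkm (0.32) had the smallest called rise among them. Gpi1, which isomerises glucose phosphate, was lower in TAMs (log2 difference -0.41), and so was Bnip3l, a mitophagy receptor that red cell precursors use to clear mitochondria (-0.79). The erythroid genes summed to 298 to 320.1 CPM in Shp2f/f MDSC and to 7.03 to 8.57 CPM in Shp2f/f TAMs, and their part in the Bnip3l level was not tested. Hk1, the second Aldoa ID, Higd1a, Ankrd37 and Ddit4 were not called.

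Per kilobase of exon, Aldoa, Pkm, Ldha, Gapdh and Tpi1 led in Shp2f/f TAMs at 413, 378, 291, 245 and 223 RPKM. Hilpda at 207 RPKM and Vegfa at 116 RPKM stood among the enzymes there, whereas in Shp2f/f MDSC they were at 9.48 and 1.68 RPKM. In MDSC Pkm led at 324 RPKM, followed by Aldoa at 281 and Gapdh at 179.9 RPKM. Levels were scaled within each cell type, so the differences between cell types above come from the joint fit.

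**Figure D3:**
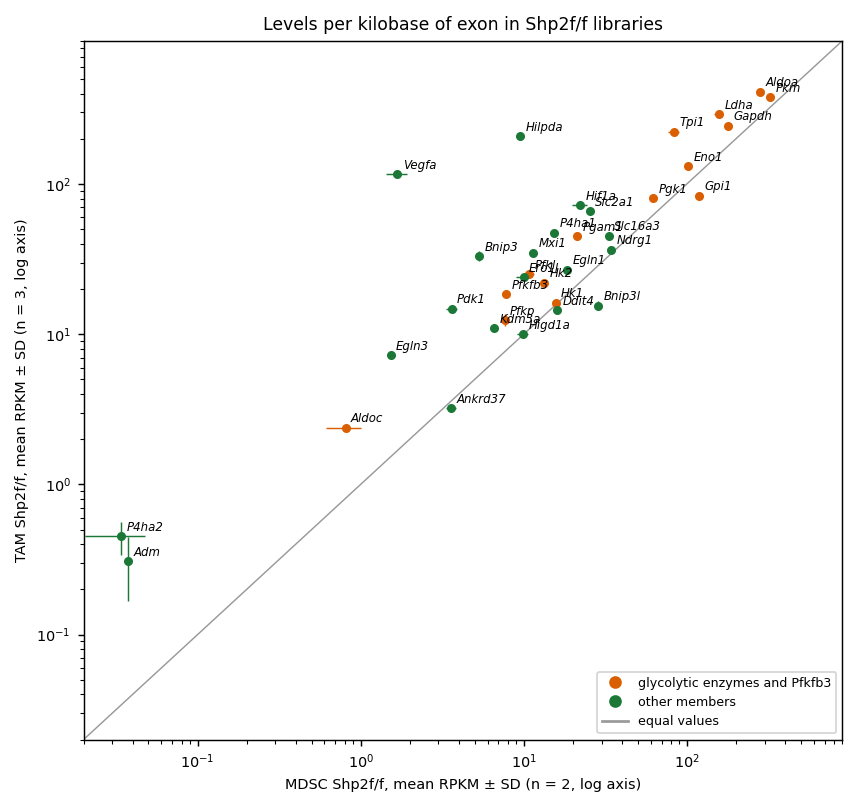
Mean level per kilobase of exon (RPKM) in Shp2f/f MDSC (x axis, n = 2) and Shp2f/f TAMs (y axis, n = 3), both on log axes, with SD as bars, left out on the x axis where it reaches 0. Each point is a gene and the line marks equal values. Most points lie above the line, farthest for Vegfa and Hilpda, and Gpi1 and Bnip3l lie farthest below it.

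Whether the genotype difference itself differed between TAMs and MDSC was tested as an interaction, the log2 difference in TAMs minus that in MDSC, in a fit that shares its libraries with the comparisons above. That fit, too, treated all libraries as independent, although TAMs and MDSC came from the same mice. It was called for 15 of the 36 rows, 14 of them more positive in TAMs and 1 more negative. Among all 16581 genes tested, 24.9% were called, 12.2% more positive and 12.7% more negative. The median was 0.27 over the 36 rows and -0.01 over all genes tested. Under total-count scaling, which moved the median of all genes to -0.18, 10 rows were more positive and 4 more negative, Gpi1, Pdk1, Mxi1 and Vegfa.

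Ddit4 had the largest interaction called (1.62, SE 0.15, edgeR adjusted p = 7.96e-05), followed in the positive direction by Slc2a1 (1.02, SE 0.070, edgeR adjusted p = 1.49e-05), Pfkfb3 (1.0, SE 0.17, edgeR adjusted p = 0.00214) and Bnip3 (0.99, SE 0.11, edgeR adjusted p = 0.000177). Each was higher in every Shp2f/fLysMcre TAM library, with log2 differences of 1.55, 0.74, 1.20 and 0.81 in TAMs against -0.04, -0.24, 0.23 and -0.14 in MDSC. The interaction of Hif1a was 0.85 (SE 0.24, edgeR adjusted p = 0.0309), and it was not called in 8 of the 10 fits that left out a library, those without either Shp2f/f MDSC library (edgeR adjusted p = 0.133 and 0.0678) or without any one of the 6 TAM libraries (edgeR adjusted p = 0.0539 to 0.0666).

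Vegfa had the opposite sign, -1.06 (SE 0.13, edgeR adjusted p = 0.00035). It was higher in Shp2f/fLysMcre mice in both cell types, by 0.55 on the log2 scale in TAMs and by 1.64 in MDSC, where Ptpn11 itself was not called lower. In CPM the step was from 497 ± 4.43 to 728 ± 30.1 in TAMs and from 7.19 ± 1.04 to 22.4 ± 2.53 in MDSC. The interaction was not called for Egln3 (0.41, edgeR adjusted p = 0.145), Hk2 (0.29, edgeR adjusted p = 0.0669) or Ldha (0.14, edgeR adjusted p = 0.367), and for Pkm it was called at 0.43 (SE 0.095, edgeR adjusted p = 0.00972).

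**Figure D4:**
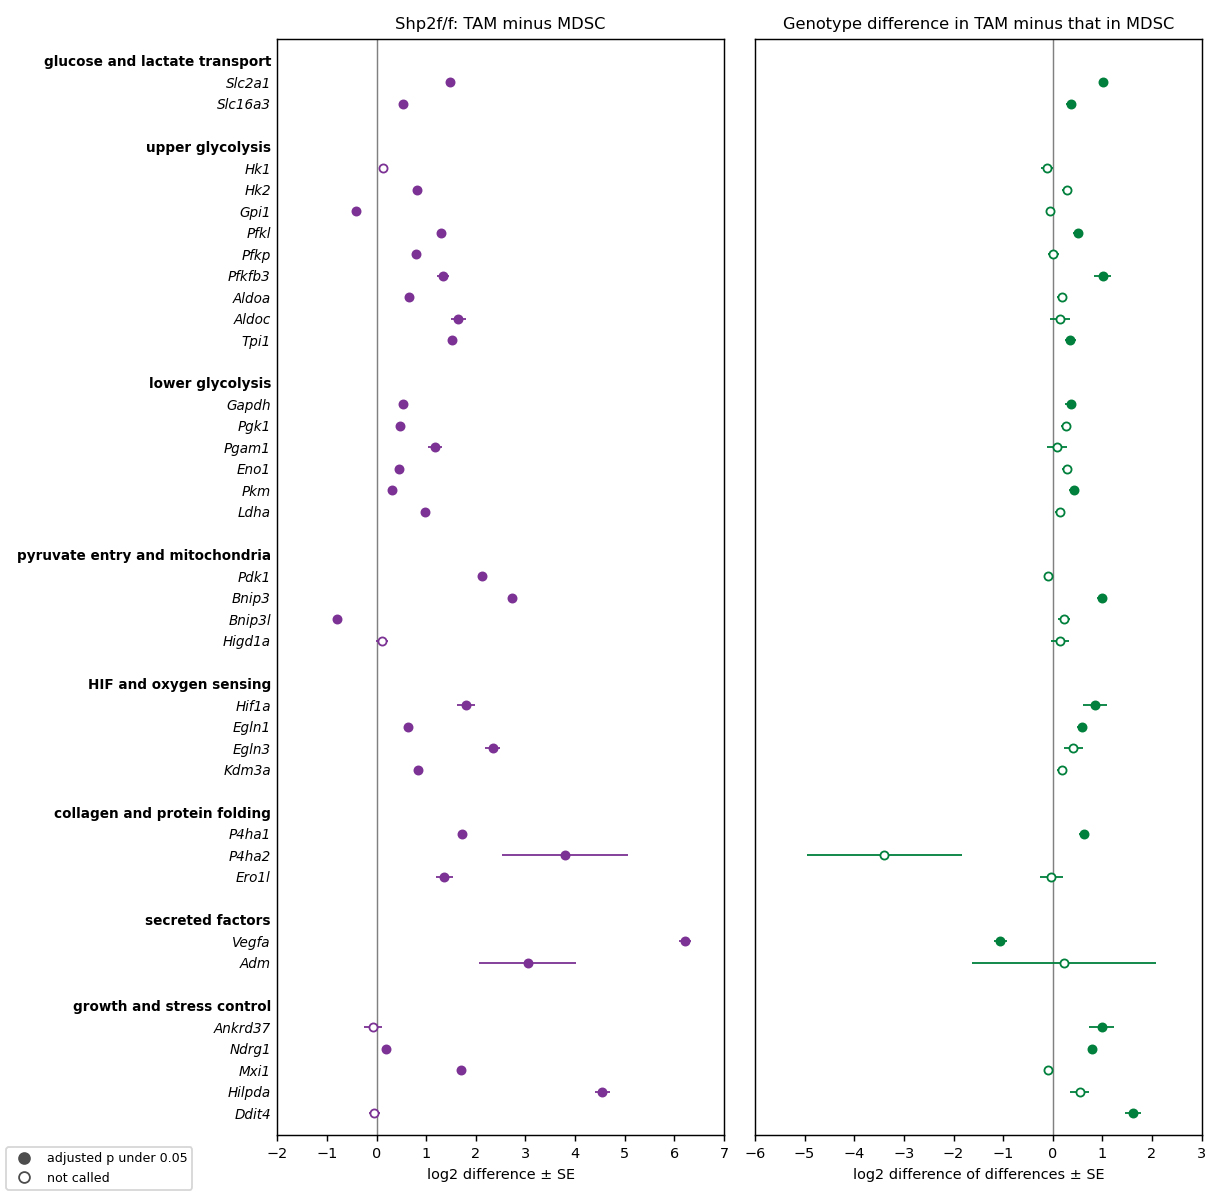
Left, log2 difference between TAMs and MDSC of Shp2f/f mice (TAM minus MDSC). Right, genotype difference in TAMs minus that in MDSC. Bars are 1 SE and filled points passed an adjusted p under 0.05. Vegfa stands at 6.21 on the left and at -1.06 on the right, opposite to Ddit4 (1.62), and P4ha2 and Adm have the widest bars.

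The wider pathway was read from 60 further genes of glucose metabolism, the pentose phosphate branch, pyruvate dehydrogenase and the HIF system. In TAMs 56 were tested, and 23 were higher and 14 lower in Shp2f/fLysMcre mice, with a median log2 difference of 0.07, beside 23.9% higher and 26.3% lower among all genes tested. Hmox1, the haem-degrading oxygenase, had the largest rise among those at 10 CPM or more, from 335 ± 5.55 to 868 ± 61.3 CPM (log2 difference 1.37), followed by the neuronal enolase Eno2 (0.56) and Wsb1 (0.44), a ubiquitin ligase adaptor. Tfrc, the transferrin receptor, had the largest fall at that level, from 399 ± 18.6 to 173 ± 3.98 CPM (log2 difference -1.21), followed by Tigar (-0.45), a brake on glycolysis, and by the lactate transporter Slc16a1 (-0.41). Below 10 CPM, Slc2a3 (0.87), Ak4 (0.75), Pdk2 (0.27) and Ldhb (0.23) were also called higher, and Arnt2 (-1.39) and Loxl2 (-0.50) lower. The 6 genes at 10 CPM or more had an edgeR adjusted p of at most 0.000564.

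Singled out after their values were seen, the pyruvate dehydrogenase subunits Pdha1, Pdhb and Dlat, which carry pyruvate into the citric acid cycle, fell in Shp2f/fLysMcre TAMs by 0.28, 0.38 and 0.29 on the log2 scale (edgeR adjusted p at most 0.000279), beside the rise of Slc2a1 and Pkm. Pdha1, like Pgk1, lies on the X chromosome. Pdp1, the phosphatase that activates the complex, rose by 0.30 (edgeR adjusted p = 0.00107), and Pdk2, a kinase that shuts it off, by 0.27 on the log2 scale (edgeR adjusted p = 0.0215). In MDSC 54 of the 60 genes were tested, and 3 were called, all higher, near the 4.28% called among all genes tested. These were the muscle-type phosphofructokinase Pfkm (log2 difference 1.0, edgeR adjusted p = 0.0238), Tfrc (0.94, 0.0343) and Rpia (0.64, 0.0335), an enzyme of the pentose phosphate branch. Tfrc fell in TAMs and rose in MDSC, in the same direction as the proliferation genes of each cell type. A link between them was not tested.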

How the data were processed

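Total RNA (10 libraries, polyA-selected, paired-end) was processed by the authors. Per the submitters' processing notes and the methods, reads were checked with FastQC 0.11.5, trimmed with cutadapt 2.5, aligned to GRCm38 with STAR 2.7.3a and counted per Ensembl gene with featureCounts (Subread 1.6.2), and DESeq2 1.24.0 was applied. The strand setting and the treatment of multi-mapping reads are not given in the sources used here. The authors deposited raw counts per gene, which were used here, and a table of DESeq2-normalized values, which was not used. Gene IDs were matched to the GRCm38 annotation (99.7% of the table).

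Members and lists were chosen with earlier results of these data known. Counts were tested with the edgeR 4.0.16 quasi-likelihood test in R 4.3.3 after filterByExpr (minimum count 10) and TMM scaling, with Benjamini-Hochberg (BH) adjustment over all genes tested and a threshold of 0.05. TAMs and MDSC were fitted apart for genotype, and all 10 libraries together for cell type and interaction. SE is the log2 difference divided by the root of F. CPM were TMM-scaled within each cell type, those of Ly6g, Csf1r, fibroblast genes, Xist and marker sums by total counts, and RPKM divide CPM by the exon length of the annotation. Levels in every library are given for 8 chosen members and for the 5 called members with the largest difference and a mean of at least 10 CPM in each of the TAM, MDSC and interaction comparisons. Of the 60 further genes, the 3 largest rises and falls were named per genotype comparison. The script was tested on simulated data. Alternatives were DESeq2 1.42.0, its size factors, total-count scaling, other filters, a threshold of 0.01, voom with weights per cell type (limma 3.58.1), a replicate block, summed gene copies, 1 fit of all libraries and leaving out each library. Within each group, the chi-square per degree of freedom between the counts of 2 libraries was 4.46 to 58.1, so none was a copy of another. Libraries of different groups were not compared in this way. Same-numbered TAM libraries did not deviate together in all pairs, and the MDSC libraries were too few to show it, so the numbers were not used as pairs.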

Additional observations from a re-analysis of the deposited data

Results flagged for a closer look

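The genotype difference differed between the cell types, by the edgeR interaction test, for 15 members. The difference in TAMs minus that in MDSC was more positive for Ddit4 (1.62), Slc2a1 (1.02), Pfkfb3 (1.0), Bnip3 (0.99), Ankrd37 (0.98), Hif1a (0.85), Ndrg1 (0.79), P4ha1 (0.63), Egln1 (0.59), Pfkl (0.50), Pkm (0.43), Gapdh (0.36), Slc16a3 (0.36) and Tpi1 (0.36), all on the log2 scale. It was more negative for Vegfa (-1.06). Among all genes tested 24.9% were called in this test. With weights per cell type (limma voom) 12 of the 15 were still called, and Ankrd37, Gapdh and Tpi1 were not. Hif1a was not called in 8 of the 10 fits that left out a library. Gapdh was lost with the replicate block, under total-count scaling, without a filter on low counts and in 8 of those 10 fits, and Tpi1 under total-count scaling, without a filter and in 6 of them. Slc16a3 and Ankrd37 were lost under total-count scaling and without either Shp2f/f MDSC library, and Pkm without Shp2f/f MDSC library 2. The MDSC libraries varied more than the TAM libraries, with a biological coefficient of variation of 0.189 in MDSC and 0.0595 in TAMs. The fit with weights per cell type was run for this reason, and beyond it the part of this spread in the calls was not tested. In P4ha1 and Ndrg1 the values had opposite signs, with log2 differences of -0.42 and -0.34 in MDSC against 0.17 and 0.41 in TAMs. Signs were also opposite for Slc2a1 (-0.24 and 0.74), Hif1a (-0.23 and 0.59) and Ankrd37 (-0.21 and 0.75). The same held for Bnip3, Gapdh, Egln1, Pkm, Tpi1, Ddit4 and Pfkl, with MDSC values between -0.14 and -0.0079. None of these MDSC values was called in the main fit. P4ha1 was called lower with the replicate block and in the fit of all libraries, and Ndrg1 and Slc2a1 in the fit of all libraries.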

How the results depend on the processing

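The 29 calls in TAMs ranged from 23 higher under total-count scaling to 29 under DESeq2, and 26 to 28 when a library was left out. Of all genes tested, 52.4%, 44.8% and 41.9 to 49.3% were called in these settings, in either direction. Members near 0 in TAMs changed sign. Pfkp was at 0.014 under DESeq2 and its size factors, 0.0031 with the replicate block, 0.036 in the fit of all libraries and -0.046 to 0.070 when a library was left out. Hk1 was at 0.021 in the fit of all libraries and -0.035 to 0.013 when a library was left out. Under total-count scaling Ldha was at -0.095, the second Aldoa ID at -0.081, Eno1 at -0.048, Higd1a at -0.021 and Pdk1 at -0.016. Ldha was also at -0.0081 without a filter and -0.0056 with a minimum count of 50, and with a library left out Ldha ranged from -0.023 to 0.043 and the second Aldoa ID from -0.14 to 0.21.

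In MDSC the count of 1 was 0 at a threshold of 0.01, 2 under DESeq2 (2 higher), 6 in the fit of all libraries (3 higher) and 5 with the replicate block (4 higher), and it ranged from 0 to 9 (0 to 7 higher) when a library was left out. Such fits assume that a lone library varies like the other groups. Leaving out a library moved Hk2 from -0.078 to 0.21, Pfkfb3 from -0.093 to 0.47, Hif1a from -0.70 to 0.11 and Ddit4 from -0.16 to 0.043, and Ddit4 was at 0.0084 under total-count scaling. The cell type comparison gave 28 to 32 calls under its alternatives, 28 to 31 of them shared with the 31. The interaction count ranged from 9 without the Shp2f/f MDSC library 2 to 23 without the Shp2f/fLysMcre MDSC library 1 (8 to 21 more positive), was 9 more positive at a threshold of 0.01, and was 20 under DESeq2. Among all genes tested, 24.9% were called for the interaction in the main fit and 28.4% under DESeq2. Without either of the MDSC libraries named here, the share of all genes called moved in the same direction as the count of rows. The swing in the count is therefore not particular to these rows. Leaving out an MDSC library also leaves a lone library in its group. The interaction of Ldha was -0.037 under total-count scaling. With the replicate block 27 rows were called in TAMs and 14 in the interaction. In MDSC, r was 0.35 for same-numbered libraries of the 2 genotypes and -0.35 for the others. With 2 libraries per genotype the deviations mirror each other, so this value cannot show pairing. In TAMs, r was -0.16 to 0.051 for same-numbered libraries. The cause of the added MDSC calls was not tested. Most members held over 100 counts per library, and low counts kept P4ha2, Adm and the second Aldoa ID out of the MDSC test.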
